A study of Homo sapiens with 10 samples.

Results

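The genes described here are 8 markers of stem-like cells of the breast: the surface proteins CD44, CD24, PROM1, PROCR and THY1, and the retinaldehyde dehydrogenases ALDH1A1, ALDH1A2 and ALDH1A3. They were followed through the peak lists of MDAMB231, an established human breast cancer cell line of mesenchymal character whose surface is rich in CD44 and poor in CD24. Its chromatin was profiled in 10 samples: 2 of FAIRE, which recovers nucleosome-poor DNA, 2 each of ChIP for H3K4me3, H3K27Ac and H3K4me1, and 1 input DNA for each kind of assay. The 4 deposited lists were each called after the replicates had been combined, so no peak carries a replicate error and no test between samples was made. They hold 18019 H3K4me3 peaks, 37495 H3K27Ac peaks, 26771 H3K4me1 peaks and 46552 FAIRE peaks, with no read counts, so the depth behind a peak is unknown. Members were located by their gene bounds, and 7 of the 8 had bounds, out of 20163 protein-coding genes. Every peak that shared a base with the bounds widened by 50 kb was taken, which gave 7 H3K4me3 peaks, 39 H3K27Ac peaks, 37 H3K4me1 peaks and 62 FAIRE peaks.

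CD44 is the receptor for hyaluronan, and CD24 is a small glycolipid-anchored mucin; the pairing of abundant CD44 with scarce CD24 is the classical surface profile of tumour-initiating breast cells. The ALDH1A enzymes oxidize retinaldehyde to retinoic acid, and their activity is the basis of a dye assay that marks normal and malignant mammary stem cells. H3K4me3 lies at active or poised promoters, H3K4me1 at enhancers and the flanks of promoters, and H3K27Ac at both when they are active.

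At their promoters the members ranged from peaks of every list to none. A peak within 1 kb of any annotated start site was found in the H3K4me3 list for 3 of the 7 located members, against 67.1% of all protein-coding genes. The H3K27Ac list gave 5 of 7 (all genes 63.3%), the H3K4me1 list 4 of 7 (all genes 20%) and the FAIRE list 4 of 7 (all genes 39.2%). CD44, ALDH1A3 and PROCR carried H3K4me3, ALDH1A1 and ALDH1A2 carried H3K27Ac, H3K4me1 and FAIRE but no H3K4me3, and PROM1 and THY1 had no peak of any list. Several of these calls rested on alternative start sites far from the main one. With the canonical start site alone, an alternative chosen after seeing the data, H3K4me3 stayed at 3 members (64.9% of the 19881 protein-coding genes with a canonical start site), H3K27Ac came to 3 (60%), H3K4me1 to 1 (12.4%) and FAIRE to 3 (31.7%).

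By the median over their windows, the members had fewer H3K4me3 peaks and more H3K4me1 peaks than all protein-coding genes, with exceptions among the members. The median over the 7 members was 0.517 H3K4me3 peaks per 100 kb, beside 1.39 over all protein-coding genes, and 1.81 H3K4me1 peaks per 100 kb, beside 0.807. ALDH1A3 went the other way in both counts, with 2.16 H3K4me3 and 0.72 H3K4me1 peaks per 100 kb (by cover, 3.75% of its window under H3K4me1, above 59.9% of genes), PROCR stood at 1.39 for H3K4me3, and THY1 had no H3K4me1 peak. For H3K27Ac the medians were 1.79 and 2.10 peaks per 100 kb, and for FAIRE 2.71 and 1.97. H3K4me1 peaks covered a median of 6.06% of the member windows (all genes 2.42%), H3K27Ac peaks 4.82% (6.14%), H3K4me3 peaks 1.93% (3.61%) and FAIRE peaks 2.33% (1.83%). Behind these medians, CD44 and PROCR had the most H3K27Ac, H3K4me1 and FAIRE peaks per 100 kb and THY1 the fewest.

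**Figure D1:**
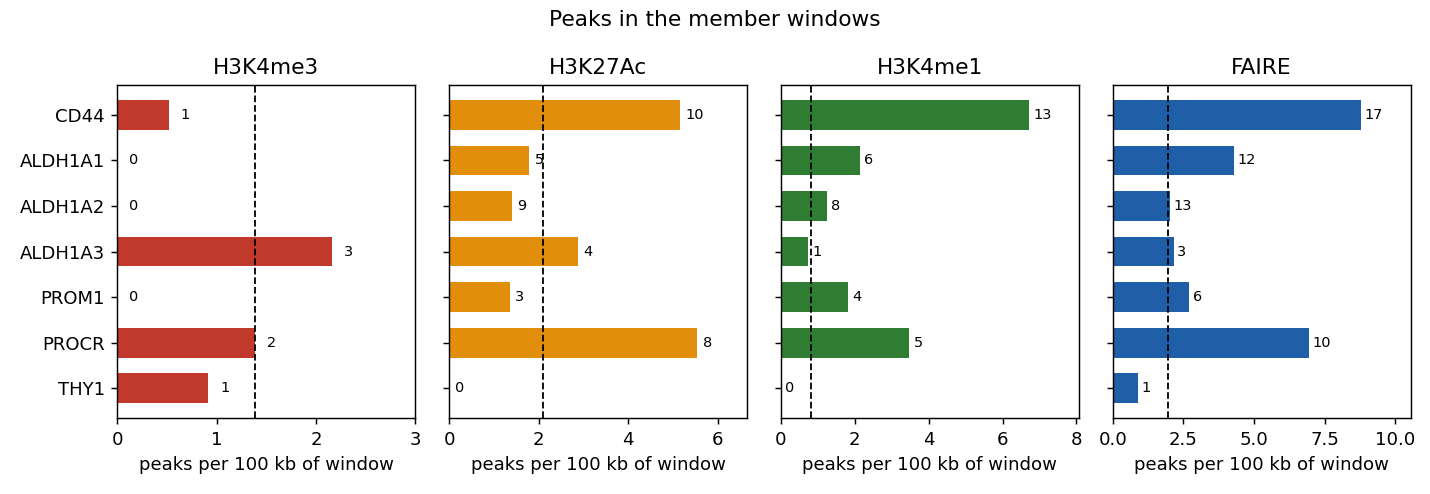
Peaks per 100 kb of window for the 7 located members, 1 panel for each list; the number beside each bar is the count of peaks in the window and the dashed line is the median over all protein-coding genes. CD44 and PROCR lie above the line for H3K27Ac, H3K4me1 and FAIRE, and THY1 lies below it in every panel.

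CD44 was the member with the most H3K4me1 and FAIRE peaks for its size. PROCR had slightly more H3K27Ac peaks per 100 kb (5.55, against 5.17 for CD44), and ALDH1A3, PROCR and THY1 had more H3K4me3 peaks per 100 kb. Its window of 194 kb held 1 H3K4me3 peak, 10 H3K27Ac peaks, 13 H3K4me1 peaks and 17 FAIRE peaks. H3K4me1 peaks covered 28.0% of it, a larger share than in 99.5% of protein-coding genes, FAIRE peaks covered 8.50%, above 98.8% of genes, and H3K27Ac peaks 20.2%, above 92.6%. By contrast the single H3K4me3 peak placed CD44 above only 33.2% of genes in H3K4me3 cover, so the breadth of its chromatin signal was in enhancer marks and open DNA. That H3K4me3 peak, chr11:35159581-35163673 of hg19, spanned the start site at the head of the gene, was 4093 bp wide, wider than 90.1% of the list, and had a score of 3100, a value that many peaks of the list share. The histone lists have no header; their score was taken as minus 10 times the log10 of the caller's p, and 56.8% of H3K4me3 peaks reached 3100 or more, so it does not order the stronger promoters.

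Around the same start site the H3K27Ac peak chr11:35159406-35167374 was 7969 bp wide, wider than 97.1% of H3K27Ac peaks, began upstream of the start site and ended in the first intron, with a score of 1876. The FAIRE peak there, chr11:35160449-35160983, was small, with a height of 48.9 that exceeded 28.2% of the list (the median FAIRE height was 61.1; the value in that list, which has no header, was taken as peak height). Open DNA was more prominent inside the gene than at its start. The tallest FAIRE peak of the window, chr11:35188059-35189234, lay in an intron 27.9 kb downstream of the canonical start site, had a height of 140 and stood above 96.8% of FAIRE peaks. It sat within the H3K27Ac peak chr11:35183331-35190840, 7510 bp wide with a score of 2871, and within the H3K4me1 peak chr11:35182466-35191091, 8626 bp wide with a score of 286, and no H3K4me3 peak lay there.

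The central 300 bases of this intronic element are shown because it was the tallest open site of the member with the most FAIRE peaks for its size (chr11:35188497-35188796, hg19, plus strand, intron of CD44, no exon overlapped). CD44 intron: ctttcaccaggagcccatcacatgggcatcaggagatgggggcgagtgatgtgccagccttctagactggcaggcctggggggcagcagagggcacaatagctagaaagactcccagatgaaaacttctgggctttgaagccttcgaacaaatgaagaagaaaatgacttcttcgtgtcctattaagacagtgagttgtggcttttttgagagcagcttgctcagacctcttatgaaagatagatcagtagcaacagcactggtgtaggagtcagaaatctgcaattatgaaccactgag It held none of the 8 short motifs searched, on both strands and with overlaps counted. These were the letters TGANTCA for AP-1, GGAATG for TEAD factors, CCGGAAG for ETS factors and TGTGGT for RUNX factors. The others were CACCTG for the E-box, AGGTCA for the nuclear receptor motif, GGGCGG for the GC box and TATAAA for the TATA motif. In the sequences that follow, capitals mark matches to these motifs.

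A second element within CD44 lay 75.8 kb downstream of the canonical start site, with its centre in an intron and its central 300 bases overlapping an annotated exon. It was close to an alternative start of a noncoding transcript and to the start of the antisense gene CD44-AS1. Its FAIRE peak, chr11:35235777-35237193, had a height of 128, the H3K27Ac peak over it, chr11:35233848-35237784, scored 1726, and the H3K4me1 peak, chr11:35233713-35239681, had a score of 573, the highest H3K4me1 score of the CD44 window and above 96.5% of the list. Beyond the end of the gene a further H3K4me1 peak, chr11:35256062-35260737, had nearly the same score, 569. Between the intronic element described above and this second element, a set of 7 alternative starts lay within 1 kb of the H3K4me1 peak chr11:35198386-35203129. The score of that peak, 68.5, was the lowest H3K4me1 score of the window. Of these starts 5 were also within 1 kb of the H3K4me1 peak chr11:35193611-35197651, whose score of 522 was above 95.5% of the list, and 1 was within 1 kb of the H3K27Ac peak chr11:35194429-35197154, with a score of 169. Of the 35 start sites annotated for CD44, 10 had an H3K4me3 peak within 1 kb, all of them at the head of the gene. On the far side, 3 H3K27Ac peaks and 4 H3K4me1 peaks were nearer to a start site of SLC1A2, a glutamate transporter gene, than to any of CD44, and 7 of 10 H3K27Ac peaks were nearest to CD44.

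**Figure D2:**
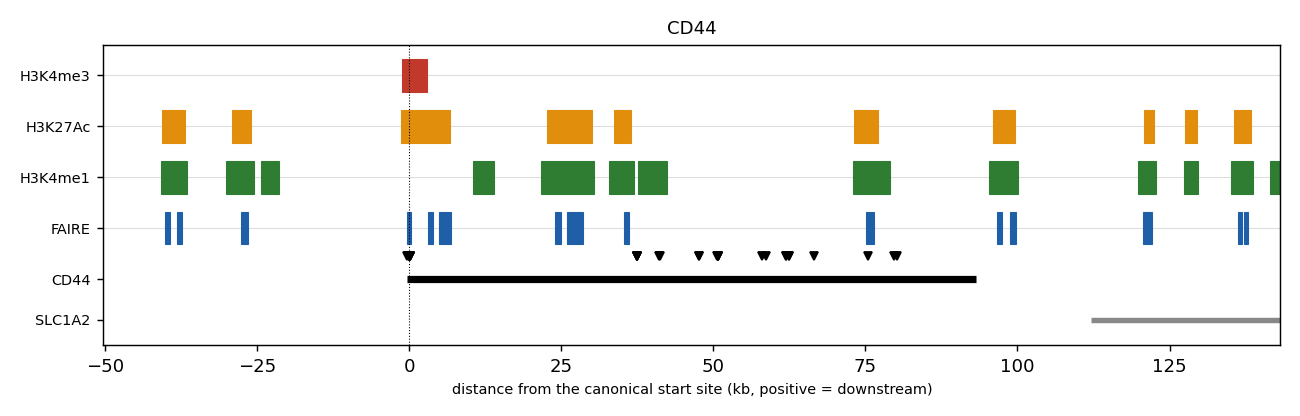
Map of the CD44 window, drawn to scale: peaks of the 4 lists as blocks, the gene bounds of CD44 in black and of SLC1A2 in grey, and annotated CD44 start sites as triangles, against the distance from the canonical start site in kb. The only H3K4me3 block lies at 0, while H3K27Ac, H3K4me1 and FAIRE blocks recur upstream, inside and downstream of the gene.

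CD24, the counterpart of CD44 in the surface profile, had no bounds in the annotation and enters none of the counts above. RefSeq gives 3 start sequences of 300 bases for it on chromosome 6 of GRCh38.p14, and these were matched to the whole of GRCh37, the build of the lists. The sequence chr6:106975416-106975715 (GRCh38.p14, minus strand) matched in 1 place, chrY:21154751-21155050, over all 300 bases at 98.3% identity. The sequence chr6:106975578-106975877 matched at the same place over 145 of its bases at 97.9% identity, and chr6:106973990-106974289 had no match with an expectation below 1e-15. No match fell on chromosome 6 of GRCh37, so in that build the start of CD24 is represented, at this similarity, by the Y chromosome alone.

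The 95 bases before the most upstream RefSeq start site of CD24 (chr6:106975628-106975722, GRCh38.p14, minus strand) and the matched bases of the Y chromosome (chrY:21154963-21155057, GRCh37, minus strand, within the noncoding gene TTTY14 and outside any protein-coding gene) are shown because an H3K4me3 peak lay over the Y bases. Capitals mark the 2 bases that differ.
CD24: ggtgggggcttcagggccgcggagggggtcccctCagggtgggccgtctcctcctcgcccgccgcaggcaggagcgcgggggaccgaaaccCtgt
Y copy: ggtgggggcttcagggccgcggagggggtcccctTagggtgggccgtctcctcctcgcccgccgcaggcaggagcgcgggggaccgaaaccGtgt

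An H3K4me3 peak lay over this place. The peak chrY:21154334-21155258 was 925 bp wide with a score of 1837, above 34.5% of the H3K4me3 list, and covered the whole of CD24P4, a processed pseudogene of CD24. The H3K4me3 list had 2 peaks on the Y chromosome, and the other scored 65.1. Neither acetylation nor H3K4me1 gave a peak on that chromosome, and the nearest of its 16 FAIRE peaks was 7664 kb away. Of the 876 words of 50 bases in the peak, 96.1% occurred once in GRCh37, and of the 251 such words in the best-matched CD24 sequence, 32.7% occurred exactly, each in 1 place. Whether the reads under the peak came from CD24 or from the Y copy was not tested. Counted through this peak, CD24 would bring the members with promoter H3K4me3 to 4. No H3K27Ac, H3K4me1 or FAIRE peak lay there, but much of the CD24 start sequence is missing from the build. Of the 50-base words in its 3 start sequences, 67.3%, 97.2% and 100% did not occur in GRCh37. The blanks therefore cannot be read as the state of these marks at CD24.

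PROCR, the endothelial protein C receptor and a marker of multipotent mammary stem cells, was the only member with a peak of all 4 lists at its canonical start site. The H3K4me3 peak chr20:33758951-33760846 had a width of 1896 bp and a score of 1093, above 29.5% of its list. The H3K27Ac peak chr20:33758646-33760896 scored 249, the H3K4me1 peak chr20:33758246-33761463 scored 105, and the FAIRE peak chr20:33759383-33760272 had a height of 117, above 92.0% of FAIRE peaks. Open DNA at the PROCR promoter was thus high in its list while the 3 histone marks were below the medians of theirs. The 250 bases before the start site, from RefSeq and matched exactly to chr20:33759625-33759874 of hg19 (plus strand, upstream of the first exon), are shown because every assay called this stretch.
PROCR upstream: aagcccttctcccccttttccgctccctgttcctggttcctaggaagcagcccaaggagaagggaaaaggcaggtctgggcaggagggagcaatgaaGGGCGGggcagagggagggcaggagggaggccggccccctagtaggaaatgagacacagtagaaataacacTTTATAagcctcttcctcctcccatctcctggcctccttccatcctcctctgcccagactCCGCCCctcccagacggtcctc
It held 2 GC boxes and 1 TATA match, on either strand; of 35116 RefSeq upstream stretches of this length, 42.6% held a GC box and 10.7% a TATA match.

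The tallest FAIRE peak of all the member windows was also in PROCR, near the other end of its bounds. The peak chr20:33802838-33803855, with a height of 188, exceeded 99.8% of the FAIRE list, and lay 43.5 kb downstream of the canonical start site in an intron shared by an extended PROCR transcript and MMP24OS, which overlaps it. H3K27Ac (chr20:33801665-33805377, score 1867) and H3K4me1 (chr20:33801582-33806136, score 331) covered it, with no H3K4me3. Its nearest coding start site belonged to MMP24, 11147 bp away, so its position does not assign it to PROCR. Its central 300 bases, chr20:33803197-33803496 of hg19 (plus strand), are given for that height, and held 1 RUNX match and 1 nuclear receptor motif.
PROCR distal: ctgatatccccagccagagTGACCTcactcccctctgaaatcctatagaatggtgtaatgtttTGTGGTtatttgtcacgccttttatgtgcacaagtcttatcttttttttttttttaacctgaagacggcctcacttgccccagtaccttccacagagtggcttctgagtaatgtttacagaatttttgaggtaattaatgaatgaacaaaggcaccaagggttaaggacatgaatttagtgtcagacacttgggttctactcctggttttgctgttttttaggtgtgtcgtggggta

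In the PROCR window as a whole, FAIRE peaks covered 6.60%, above 96.2% of genes, and H3K4me1 peaks 12.6%, above 91.5%. Most peaks lay nearer to start sites of other genes: of 8 H3K27Ac peaks and 10 FAIRE peaks, 1 each was nearest to a start site of PROCR. The other H3K4me3 peak, chr20:33733973-33736628, with a score of 3100, stood at the start of EDEM2, a gene of the endoplasmic reticulum degradation pathway. The widest H3K27Ac peak of the window, chr20:33721333-33726005, was 4673 bp wide with a score of 823.

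PROM1, the cholesterol-binding membrane protein prominin, had no peak within 1 kb of any of its 18 start sites. The nearest H3K4me3 peak was 65.2 kb from a PROM1 start site, the nearest H3K27Ac peak 2.90 kb, the nearest H3K4me1 peak 2.56 kb and the nearest FAIRE peak 7.65 kb; from the canonical start site the distances were 140 kb, 48.9 kb, 15.2 kb and 15.9 kb. Within the gene, a weak H3K27Ac peak, chr4:16035120-16036736 with a score of 84.0, above 9.84% of the list, lay in an intron together with an H3K4me1 peak of score 134. The FAIRE peak nearest to the canonical start, chr4:16068825-16069752, had a height of 69.9 and lay under the H3K4me1 peak chr4:16067959-16070448. The strong peaks of the window were at its edge, past the end of the gene: H3K27Ac at chr4:15920735-15924532 with a score of 3100, over a FAIRE peak of height 141, the tallest of the window, and H3K4me1 at chr4:15913726-15917760 with a score of 305, the highest of the window. They were nearest to FGFBP1, a fibroblast growth factor binding protein gene.

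THY1, a small glycolipid-anchored surface protein of fibroblasts and stem cells, was the emptiest member. No H3K27Ac or H3K4me1 peak lay in its window of 110 kb. Its only H3K4me3 peak, chr11:119251268-119253384 with a score of 1166, and its only FAIRE peak, chr11:119251784-119252734 with a height of 65.1, overlapped each other at the start of USP2, a ubiquitin protease gene, 38.6 kb and 39.2 kb from the nearest THY1 start site. The nearest H3K27Ac peak was 63.8 kb and the nearest H3K4me1 peak 97.1 kb from a THY1 start site. Sequence uniqueness was counted at the canonical start sites alone. All 1952 words of 50 bases within 1 kb of the canonical start sites of THY1, PROM1 and ALDH1A2 occurred once in GRCh37, which was also so for CD44, ALDH1A1 and ALDH1A3, while PROCR, which had peaks, came to 98.8%.

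**Figure D3:**
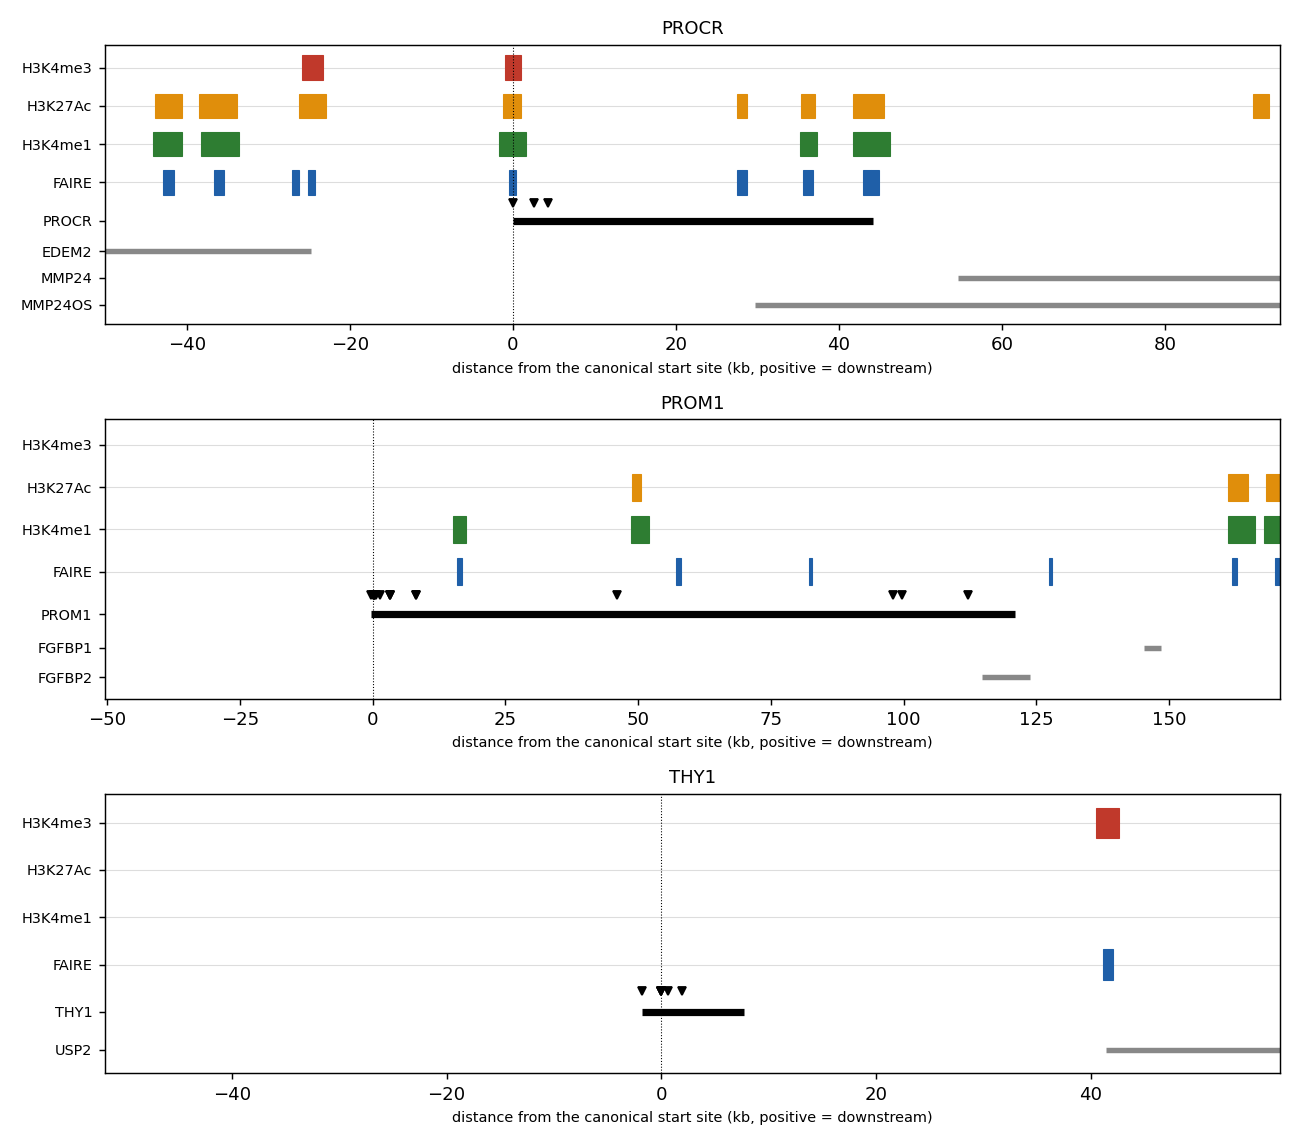
Maps of the PROCR, PROM1 and THY1 windows, drawn to scale as distance from each canonical start site in kb, with peaks as blocks, the member in black, other protein-coding genes that start in the window in grey and start sites of the member as triangles. Blocks of all 4 lists meet at 0 for PROCR, and none lies at 0 for PROM1 or THY1.

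The 3 retinaldehyde dehydrogenases differed from one another in kind. ALDH1A3, the isoform most often tied to dye-positive breast cancer cells, had a promoter with both H3K4me3 and H3K27Ac. ALDH1A1, the isoform of liver and many stem cells, had an open start site without histone peaks, and ALDH1A2, the main embryonic retinoic acid enzyme, had nothing at its canonical start.

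At ALDH1A3 the H3K4me3 peak chr15:101418558-101420941 was 2384 bp wide and had a score of 3100. The H3K27Ac peak on it, chr15:101418775-101420791, scored 116, above 16.0% of H3K27Ac peaks. No FAIRE or H3K4me1 peak was at this promoter. The nearest FAIRE peak, chr15:101413009-101413802 with a height of 68.8, was 4.12 kb from an ALDH1A3 start site (6.23 kb from the canonical one), and the nearest H3K4me1 peak was 58.4 kb away (76.6 kb). The other H3K4me3 peaks of the window, both with a score of 3100, lay at other genes: chr15:101388963-101392198 at the start of the noncoding gene GCAWKR and chr15:101457728-101461143 at the start of LRRK1, a kinase gene, where the antisense gene ALDH1A3-AS1 also begins. H3K27Ac scored 1162 and 1734 at those starts, against 116 at ALDH1A3. The highest H3K27Ac score of the window, 3100 at chr15:101496494-101501358, was in an intron of LRRK1, over the tallest FAIRE peak of the window, with a height of 79.2.

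At ALDH1A1 the canonical start site was marked by FAIRE alone. The peak chr9:75567560-75568668 had a height of 40.6, above 14.8% of FAIRE peaks, and no histone peak overlapped it. The nearest H3K27Ac peak to that start was 24.6 kb away, the nearest H3K4me1 peak 24 kb and the nearest H3K4me3 peak 179 kb (51.4 kb from any ALDH1A1 start site). An alternative start of a coding transcript, upstream of the canonical one, had more: the H3K4me1 peak chr9:75651380-75655252 scored 512, above 95.3% of the list, the H3K27Ac peak chr9:75651938-75654170 scored 167, and a pair of adjoining FAIRE peaks had heights of 65.2 and 48.2. H3K4me1 was thus far higher in its list there than H3K27Ac, which exceeded 23.4% of its own. The highest H3K27Ac score and tallest FAIRE peak of the ALDH1A1 window lay 166 kb upstream of the canonical start, at 1468 (chr9:75732194-75735709) and 114 (chr9:75733623-75734649), and their nearest coding start site was that of ANXA1, the annexin gene.

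The taller FAIRE peak at the alternative ALDH1A1 start is shown for its central 300 bases, chr9:75652738-75653037 of hg19 (plus strand, intron of ALDH1A1, no exon overlapped), because it was the taller of the open sites at the ALDH1A1 start that also had H3K27Ac and H3K4me1. It held 2 nuclear receptor motifs and none of the other 7 motifs.
ALDH1A1 alternative start: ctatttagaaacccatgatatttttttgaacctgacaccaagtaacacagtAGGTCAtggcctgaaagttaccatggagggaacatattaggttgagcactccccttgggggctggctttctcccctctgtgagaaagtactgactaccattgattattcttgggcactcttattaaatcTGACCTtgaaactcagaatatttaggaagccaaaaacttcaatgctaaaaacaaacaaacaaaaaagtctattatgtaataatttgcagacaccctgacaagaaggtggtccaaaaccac

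ALDH1A2 had the widest bounds, 544 kb with 23 start sites, since noncoding and extended transcripts carry it upstream into LIPC, the hepatic lipase gene. The nearest FAIRE and H3K4me1 peaks were both 162 kb from its canonical start site, the nearest H3K27Ac peak 264 kb and the nearest H3K4me3 peak 357 kb (247 kb from any ALDH1A2 start site). Its promoter calls came from 4 of the 23 start sites. At a group of 3 noncoding starts, 266 kb upstream of the canonical one, the H3K27Ac peak chr15:58621989-58626873 was 4885 bp wide with a score of 3100, the H3K4me1 peak chr15:58621590-58627046 scored 400, and the FAIRE peak chr15:58623584-58625094 had a height of 114, the tallest of the window. At 1 coding start in an intron of LIPC the H3K27Ac peak chr15:58759731-58767466 was 7736 bp wide, again with a score of 3100, with an H3K4me1 score of 494 and a FAIRE height of 55.2 at the start site itself. Neither place had H3K4me3, which had no peak in the whole window.

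The central 300 bases of the tallest ALDH1A2 FAIRE peak, chr15:58624190-58624489 of hg19 (plus strand, intron, no exon overlapped), are given because it was the tallest open site at a start of this gene. They held 1 TEAD, 1 ETS and 2 RUNX matches.
ALDH1A2 upstream element: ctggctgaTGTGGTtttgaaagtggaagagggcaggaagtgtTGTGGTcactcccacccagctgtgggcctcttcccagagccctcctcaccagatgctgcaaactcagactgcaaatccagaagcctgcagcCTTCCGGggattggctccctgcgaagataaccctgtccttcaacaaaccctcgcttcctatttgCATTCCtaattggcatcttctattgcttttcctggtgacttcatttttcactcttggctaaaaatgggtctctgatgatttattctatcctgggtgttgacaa

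**Figure D4:**
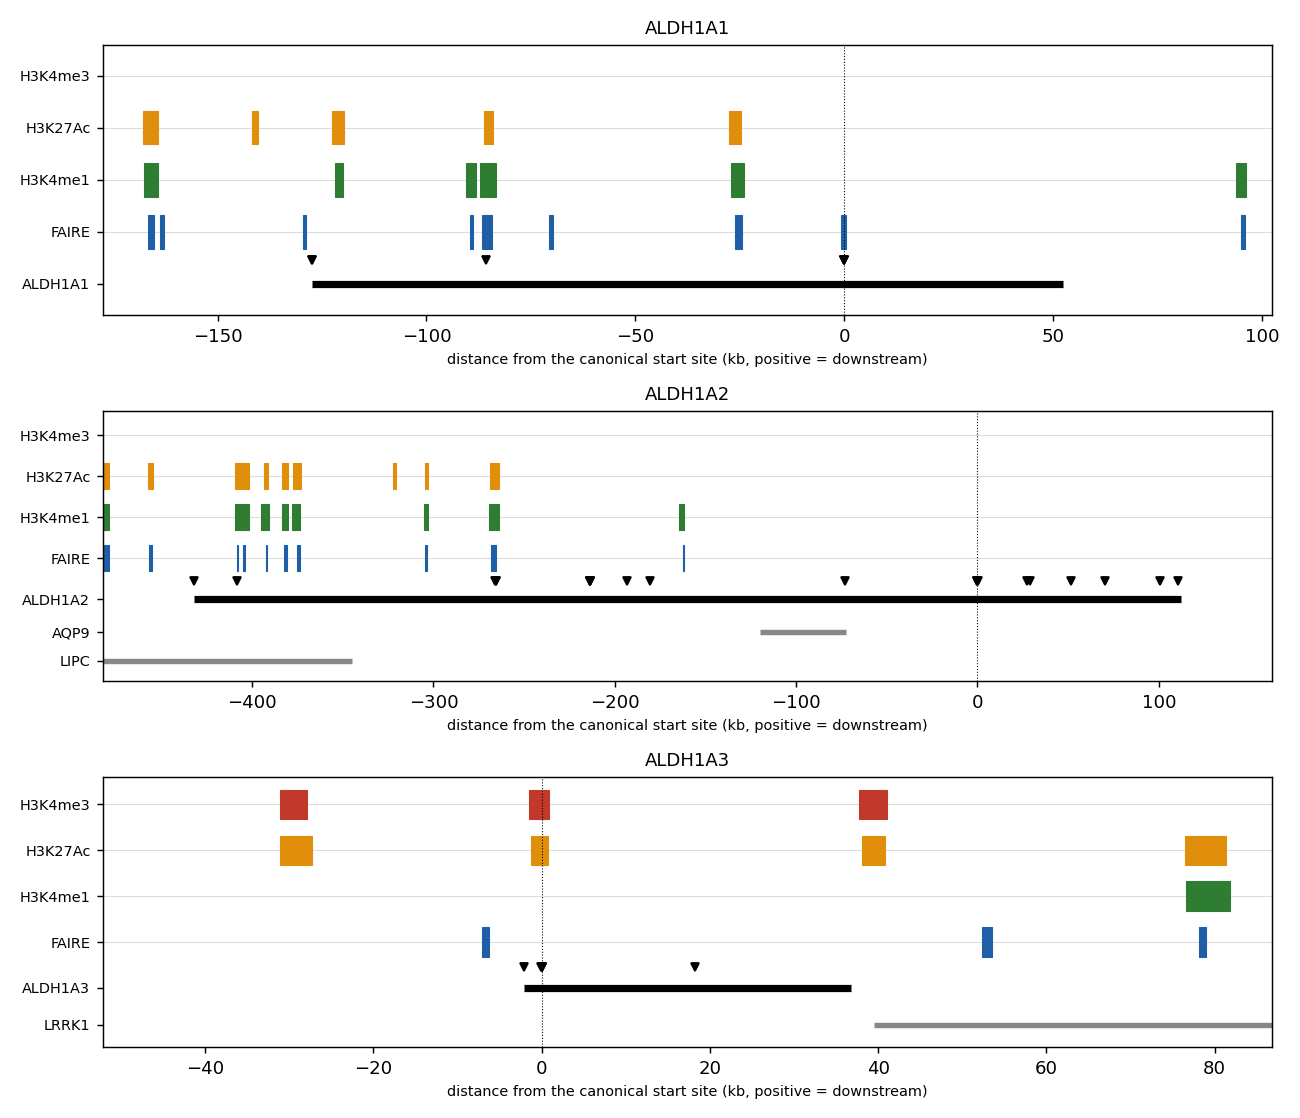
Maps of the ALDH1A1, ALDH1A2 and ALDH1A3 windows, drawn to scale as distance from each canonical start site in kb, with peaks as blocks, the member in black, other protein-coding genes that start in the window in grey and start sites of the member as triangles. H3K4me3 blocks appear for ALDH1A3 alone, and the blocks of ALDH1A2 all lie far upstream of 0.

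Base composition separated the promoters in another way. A start site was called CpG-rich when the 1 kb around it had at least 50% G and C and a CpG count at least 0.6 of that expected from its bases. CpG-rich canonical start sites carried an H3K4me3 peak in 87.5% of all protein-coding genes with one, and the remaining start sites in 22.8%. Of the 4 CpG-rich members, CD44 (CpG ratio 0.676) and ALDH1A3 (0.959) had the mark, while ALDH1A2 (0.926, 70.8% G and C) and PROM1 (0.741, 58.7%) did not. Of the 3 others, PROCR had it at a ratio of 0.248 and 53.8% G and C, while ALDH1A1 (0.350, 38.6%) and THY1 (0.525, 65.3%) did not. So 2 members lacked H3K4me3 where most start sites of their kind had it, and PROCR had it where most did not.

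**Figure D5:**
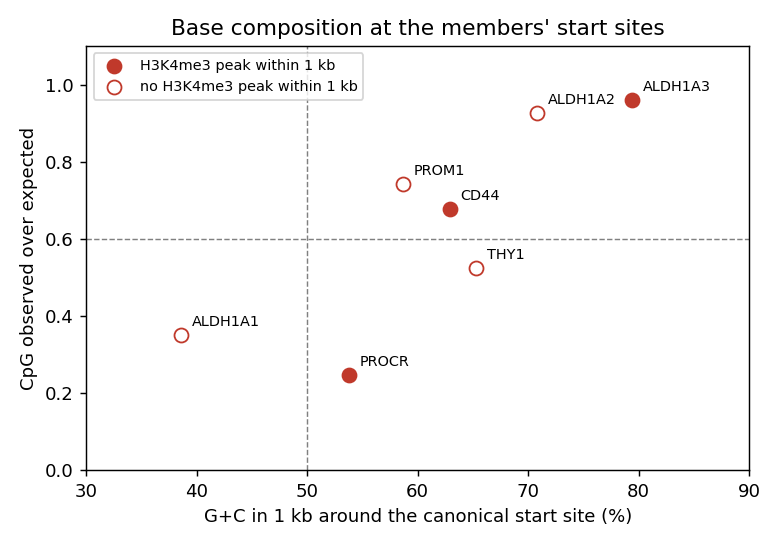
Base composition at the canonical start sites of the 7 located members: percent G and C in 1 kb against the ratio of observed to expected CpG, filled where an H3K4me3 peak lies within 1 kb. The dashed lines mark 50% and 0.6; ALDH1A2 and PROM1 are open symbols in the CpG-rich field at upper right and PROCR is a filled symbol outside it.

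Across the 62 FAIRE peaks of the member windows, AP-1 and RUNX were the commonest of the motifs searched. AP-1 was in the central 300 bases of 19 (30.6%; all FAIRE peaks 39.1%), RUNX in 19 (30.6%; 24.8%), TEAD in 15 (24.2%; 21.4%) and the nuclear receptor motif in 14 (22.6%; 19.4%). TATA was in 11 (17.7%; 19.6%), E-box in 7 (11.3%; 16.8%), GC box in 5 (8.06%; 11.6%) and ETS in 3 (4.84%; 3.46%). ALDH1A2 had TEAD in 7 and RUNX in 7 of its 13 FAIRE peaks, and CD44 had TEAD in 6, RUNX in 6 and AP-1 in 5 of 17. The 10 PROCR peaks held no TEAD match and AP-1 in 3. A match describes letters in a window and no more.

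The genes whose windows were covered most like those of the 5 members with a promoter peak were found by the distance over the 4 lists of log10 of covered bases plus 100. The measure used bases covered and not the share of the window, so a gene found alike need not be as densely covered. For CD44 these were BTBD9 (distance 0.0793), MYO16 (0.0943) and PDLIM5 (0.0983); the BTBD9 window had 34.8 kb under H3K27Ac and 61.9 kb under H3K4me1, beside 39.0 kb and 54.1 kb for CD44. PROCR was nearest to NR2C1 (0.0375), MARCHF4 and ZNF521, and ALDH1A3 to KLHDC9 (0.0245), URGCP and the readthrough gene URGCP-MRPS24, which share a window. For the other enzymes, whose windows have no H3K4me3, the nearest windows had none either, as the measure favours: C9 (0.135), NPSR1 and SH3GL3 for ALDH1A1, and HORMAD2 (0.0762), CD36 and COL6A3 for ALDH1A2.

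Wider gene lists put the members in context, counted at canonical start sites, where 64.9% of the 19881 protein-coding genes with one had H3K4me3, 60% H3K27Ac, 12.4% H3K4me1 and 31.7% FAIRE. Of 16 other aldehyde dehydrogenase genes, 13 had H3K4me3, 12 H3K27Ac, 4 H3K4me1 and 6 FAIRE (at any start site 13, 13, 5 and 6), so promoter H3K4me3 was at 81.2% of the wider family and at 1 of the 3 ALDH1A members. ALDH1B1, ALDH1L1 and ALDH2 had both H3K4me3 and H3K27Ac, and ALDH3B2 and ALDH8A1 had no peak. Of 14 genes that carry, oxidize, degrade or sense retinoids, 9 had H3K4me3, 7 H3K27Ac, 1 H3K4me1 and 2 FAIRE (at any start site 10, 9, 3 and 6). CYP26A1 had H3K4me3 without H3K27Ac, and CRABP1 and CYP26C1 had neither. Of 11 hyaluronan genes and CD44 partners, 9 had H3K4me3, 8 H3K27Ac, 2 H3K4me1 and 4 FAIRE (at any start site 9, 8, 2 and 6); the hyaluronan synthase HAS3 and the membrane linker MSN had H3K4me3, H3K27Ac and FAIRE together, and HAS1 and HYAL1 had none.

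Of 14 other surface genes used to enrich mammary stem or progenitor cells, 10 had H3K4me3, 9 H3K27Ac, 4 H3K4me1 and 4 FAIRE (at any start site 12, 10, 6 and 5). The integrin ITGB1 and ALCAM resembled PROCR, with all 4 lists at the canonical start, and NGFR and MME resembled PROM1 and THY1, with none. Of 9 partners of CD24, PROM1, PROCR and THY1, 5 had H3K4me3, 5 H3K27Ac, 0 H3K4me1 and 1 FAIRE (at any start site 5, 6, 0 and 2). THBD, which works with PROCR in activating protein C, had H3K4me3, H3K27Ac and FAIRE, while PROC, which encodes protein C itself, and the CD24 ligands SIGLEC10 and SELP had none.

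Markers of cell types, counted in the same way, described the line in which these promoters were read. Of 6 mesenchymal markers, 5 had H3K4me3, 6 H3K27Ac, 5 H3K4me1 and 3 FAIRE (at any start site 5, 6, 5 and 6), with VIM and CAV1 in every list. Of 8 luminal markers, 6 had H3K4me3, 4 H3K27Ac, 0 H3K4me1 and 2 FAIRE (at any start site 7, 6, 2 and 5); at the canonical start all 4 with H3K27Ac, KRT8 and KRT18 among them, also had H3K4me3, and ESR1 and FOXA1 had H3K4me3 without H3K27Ac. Of 4 myoepithelial markers, 2 had H3K4me3, 1 H3K27Ac, 1 H3K4me1 and 0 FAIRE, the same at any start site; TP63 had all 3 histone marks, CDH3 had H3K4me3 alone, and KRT5 and KRT14 had none. The 3 immune markers had no peak, and of the 2 endothelial markers located, KDR had H3K4me3 alone and CDH5 had none.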

How the data were processed

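MDAMB231 chromatin was profiled by FAIRE-seq and by ChIP-seq of H3K4me3, H3K27Ac and H3K4me1. The authors aligned the reads with BWA to hg19, removed duplicates and poorly mapped reads with Samtools, combined the replicates and called peaks against input with MACS (histone marks) and FindPeaks (FAIRE); the submitters' notes also name TopHat and HOMER. The deposited histone lists were taken to give the MACS score, at least 50, and the deposited FAIRE list was taken to give the peak height as signal, since no file has a header; 3791 FAIRE peaks adjoin the next. Positions are given 1-based, on hg19 (GRCh37). Gene bounds, start sites and canonical transcripts came from GENCODE release 44 lifted to GRCh37. A peak counted where it shared at least 1 base with a window, checked on simulated intervals against bedtools 2.31.1. Sequences were matched with blastn 2.17.0. Every member was named, with each peak at its promoter, the nearest peak where there was none, and the widest, highest-scoring or tallest peak of its window; other peaks and list examples named, the CpG measure and the CD24 match were chosen after their values were seen. The members and lists were chosen with earlier results of these data known. PECAM1 was not located, and 7 members had a RefSeq start sequence (not THY1). A gene of the retinoid list as first drawn up is not reported here and is outside its counts.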

Additional observations from a re-analysis of the deposited data

How the results depend on the processing

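Each list was called from combined replicates, so leaving out a replicate was not possible. No paired analysis was possible because each list came from combined replicates and no test was made. Of 57 counts under another setting, 36 were within 1.5 times the reported one. Members with promoter H3K4me3 numbered 3 under all 7 planned settings. With the most upstream start site only, members with a promoter peak fell to 3 for H3K27Ac, 1 for H3K4me1 and 2 for FAIRE; with the canonical start site they were 3 for H3K27Ac and 1 for H3K4me1. Peaks in the member windows, for H3K4me3, H3K27Ac, H3K4me1 and FAIRE in turn, were 4, 23, 22 and 40 with bounds widened by 20 kb, 3, 20, 21 and 34 with bounds not widened, 4, 19, 21 and 34 when the peak centre had to be nearest to a start site of the member, and 20, 63, 55 and 104 with bounds widened by 100 kb. The FAIRE count was 32 at heights of at least the list median. These shifts follow from the window drawn or from peaks left out. A peak below the callers' thresholds is not listed, so a blank is no measure of a mark's absence.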

Other observations

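Further peaks of the member windows lay in or near other genes, and position alone does not assign them. The only H3K4me1 peak in the ALDH1A3 window, with a score of 478 at chr15:101496645-101501847, was in an intron of LRRK1, under the H3K27Ac peak described above. In the ALDH1A2 window an element in an intron of LIPC and of the extended ALDH1A2 transcript, chr15:58738903-58740166, had a FAIRE height of 110, above 89.7% of the list. At the edge of the same window the H3K27Ac peak chr15:58836879-58841271, in LIPC, scored 1965. At the far edge of the PROM1 window a second element near FGFBP1 had an H3K27Ac score of 2893 (chr4:15913442-15917359) and a FAIRE height of 131.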
